A study of Mus musculus with 6 samples.

Results

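The receptors of the interleukin-6 family, the Janus kinases bound to them and the STAT factors they phosphorylate were examined in the ganglion cell layer of the mouse retina 6 hrs after optic nerve crush. They were 10 genes, chosen by name: the receptor genes Il6st, Lifr, Osmr, Cntfr and Il6ra, the kinase genes Jak1, Jak2 and Tyk2, and the STAT genes Stat3 and Stat5b. All probe sets that the platform annotation assigned to 1 of these symbols were taken, which gave 27 of the 45101 probe sets on the array. None of them shared its symbol with another gene. A mean intensity of at least 40 over the 6 arrays was required for testing, and 22 of the 27 probe sets met it, among 33169 on the whole array. The 5 others, with means from 2.74 to 36.3, were dimmer probe sets of Il6st, Lifr, Osmr, Cntfr and Stat5b, so each gene kept at least 1 tested probe set.

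The crush group was 3 eyes of male C57BL/6J mice whose optic nerve had been crushed with forceps behind the globe, taken 6 hrs later, and the control group was 3 noninjured contralateral eyes from the same animals. The labels name no engineered allele and no drug, and the age of the mice was not given in the sources used here. From each eye about 6000 cells of the ganglion cell layer were cut out of stained frozen sections by laser capture, and their amplified RNA was hybridized to 1 Affymetrix Mu430 v2.0 array. Besides retinal ganglion cells (RGCs) this layer holds astrocytes, displaced amacrine cells, microglia, endothelial cells and the processes of Müller cells, so a lower intensity from fewer cells of a type cannot be told apart from less RNA per cell.

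Cytokines of the interleukin-6 family signal through gp130, the protein of Il6st, which pairs with a ligand-specific chain such as the receptor for leukemia inhibitory factor (Lifr), oncostatin M (Osmr), ciliary neurotrophic factor (Cntfr) or interleukin-6 (Il6ra). gp130 and its signaling partners carry Janus kinases on their inner side, which phosphorylate STAT3 after the ligand binds. Phosphorylated STAT3 moves to the nucleus and raises transcription of its targets, among them Socs3, whose protein binds gp130 and the kinases and shuts the signal off. In the retina, ciliary neurotrophic factor and leukemia inhibitory factor are known for keeping injured neurons alive and for the reaction of Müller cells and astrocytes. The pathway is switched on by phosphorylation, which an RNA array does not measure.

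The DNA around the starts of the leading receptor, kinase and STAT genes is shown with that of Socs3, because Socs3 had the largest difference among the pathway genes. Each window runs from 250 bases before the RefSeq start to 50 bases after it, on GRCm38.p6: chr13:112463820-112464119, plus strand, for Il6st, chr4:101265174-101265473, minus strand, for Jak1, chr11:100939491-100939790, minus strand, for Stat3, and chr11:117969317-117969616, minus strand, for Socs3. Capitals mark the STAT motif TTCNNNGAA, the CCAAT box and the GC box GGGCGG, on either strand.
Il6st: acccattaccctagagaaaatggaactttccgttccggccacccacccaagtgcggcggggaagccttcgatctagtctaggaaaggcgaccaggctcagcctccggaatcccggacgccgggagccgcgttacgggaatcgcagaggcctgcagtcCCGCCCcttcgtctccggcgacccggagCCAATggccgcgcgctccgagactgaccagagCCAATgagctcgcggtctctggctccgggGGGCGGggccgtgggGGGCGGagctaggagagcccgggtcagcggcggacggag
Jak1: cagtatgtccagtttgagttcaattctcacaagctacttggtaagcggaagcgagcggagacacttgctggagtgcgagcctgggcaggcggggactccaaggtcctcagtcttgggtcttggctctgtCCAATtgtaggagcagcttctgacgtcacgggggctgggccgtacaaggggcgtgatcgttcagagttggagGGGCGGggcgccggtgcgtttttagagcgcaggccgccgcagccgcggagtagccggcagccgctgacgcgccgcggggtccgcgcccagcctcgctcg
Stat3: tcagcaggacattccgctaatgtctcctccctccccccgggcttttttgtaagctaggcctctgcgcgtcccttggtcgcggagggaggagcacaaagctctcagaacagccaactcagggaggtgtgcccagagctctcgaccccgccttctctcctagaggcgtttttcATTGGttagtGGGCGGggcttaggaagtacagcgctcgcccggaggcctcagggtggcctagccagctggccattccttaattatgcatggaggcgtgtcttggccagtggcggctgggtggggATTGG
Socs3: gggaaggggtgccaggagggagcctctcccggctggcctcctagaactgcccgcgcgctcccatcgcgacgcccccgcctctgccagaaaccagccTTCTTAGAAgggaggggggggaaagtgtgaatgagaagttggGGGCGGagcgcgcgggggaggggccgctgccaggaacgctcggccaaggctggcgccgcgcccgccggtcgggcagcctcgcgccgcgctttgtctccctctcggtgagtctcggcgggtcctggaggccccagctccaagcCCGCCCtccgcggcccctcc
The STAT motif reads the same on both strands, and it was present in 8.30% of the 32851 windows of all genes. It was in none of the 17 windows of the 10 genes, and in the Socs3 window it began 154 bases before the start. The CCAAT box was found in 37.4% of all windows and in 5 of the 17, including 2 copies each at Il6st and Stat3. The GC box was found in 35.7% of all windows and in 12 of the 17, which belonged to 9 of the 10 genes. These are matches of letters only, and binding was not measured.

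The medians of the arrays were intensities of 131 to 154, and the arrays correlated with r from 0.958 to 0.991 across probe sets. Control probe sets at the 3' end were brighter than those at the 5' end of the same RNA. The ratio was 6.65 to 10.5 for Actb and 4.62 to 7.54 for Gapdh. Whether this has a part where probe sets of 1 gene disagree was not tested. A first principal component with 44.2% of the variance separated crush eye 2 from the other arrays, and a second with 27.8% separated crush eye 3. Of the 33169 probe sets, 1331 were lower on crush eye 2 than on each other array by more than 1 on the log2 scale, which is 4.01%, and 255 were higher on crush eye 3 than on each other array by that margin, which is 0.769%. Markers of RGCs were bright on every array, with a summed intensity of 10 of the 11 listed genes between 52236 and 65790, and rod markers were present too, with sums of 22644 to 38211 over 4 genes. Differences below are crush minus control on the log2 scale, from limma with the eye number as a pair, and intervals are 95% intervals of single differences, not adjusted for their number. Nominal means that the unadjusted p was under 0.05.

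After adjustment over all 33169 probe sets by Benjamini-Hochberg, limma called 0 of them, or 0%, and so none of the 22. At an unadjusted p under 0.05 it called 2546 probe sets, or 7.68%, of which 1713 were higher and 833 lower after crush. Among the 22 probe sets of the 10 genes, 2 were nominal, a dim probe set of Stat3 that was higher and a dim probe set of Jak2 that was lower, which is close to that background. Their control and crush arrays did not overlap for 2 of 22, against 12.5% of all probe sets. The direction was the same in the 3 pairs for 9 of 22 (4 higher and 5 lower), against 31.9%. In all, 11 were above 0 and 11 below, with a median of -0.04 against -0.01 over the array.

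**Figure D1:**
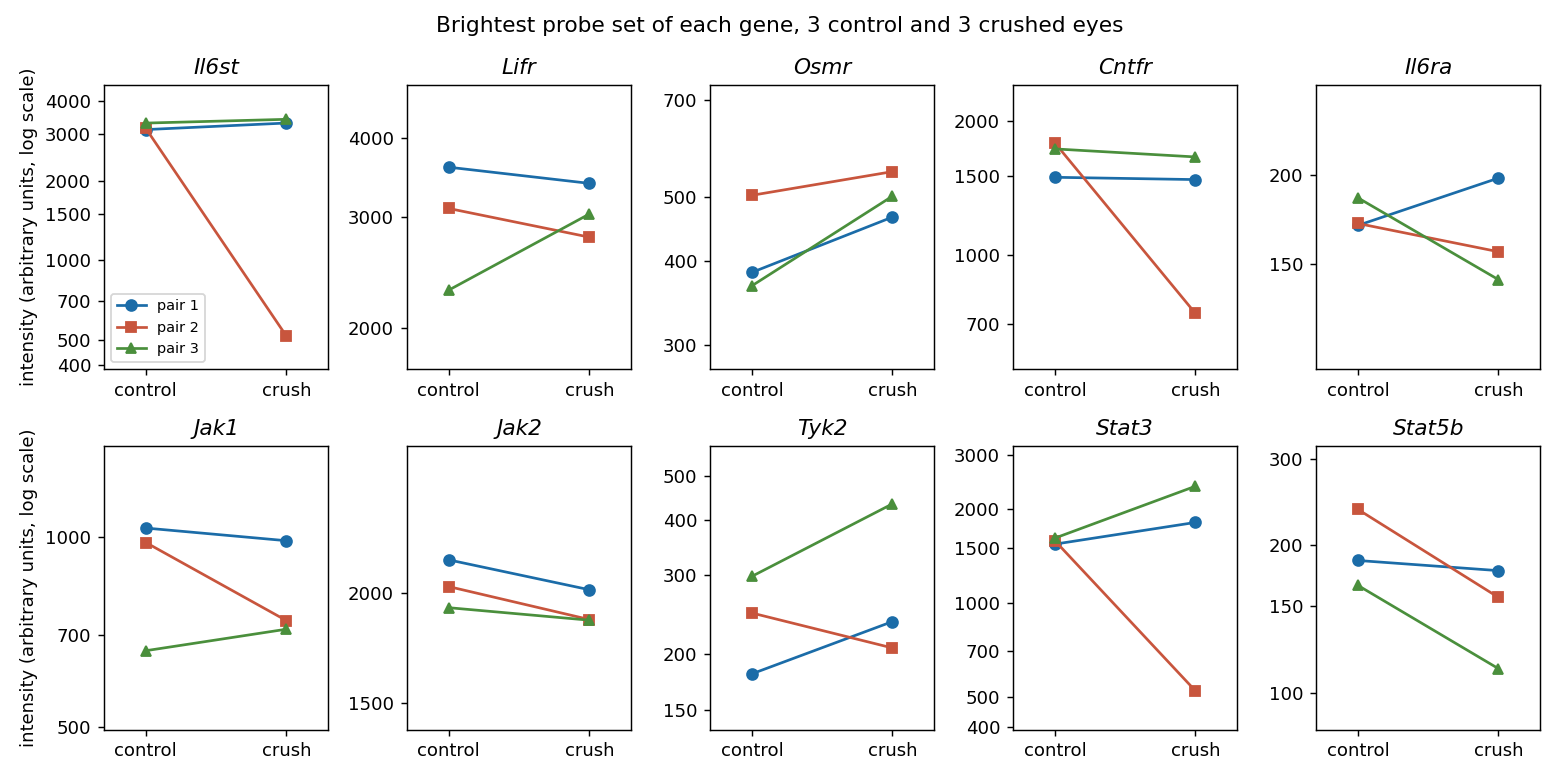
Intensity (arbitrary units, log axis) of the brightest probe set of each of the 10 genes, with 1 point per array and a line joining the control and crush eye of each pair. The Il6st, Cntfr and Stat3 points of crush eye 2 lie far below the other 5 arrays, at intensities of 517, 738 and 523.

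Taking each gene by its brightest probe set, 3 of the 10 genes were above 0 and 7 below, where 45.7% of the 15103 genes measured this way were above 0. None of the 10 was nominal, against 5.03% of all genes. Their median was -0.11 against -0.02 for all genes. In pair 2, 9 of the 10 genes were lower after crush, with a median of -0.33, where 61.1% of all genes were lower, with a median of -0.10. Without pair 2, 6 were above 0 and 4 below, with a median of 0.04 against 0.03 for all genes. For 7 of the 10 brightest probe sets the interval lay between -1 and 1, so that a doubling or halving after crush was outside it, and the exceptions were Il6st, Cntfr and Stat3. Over all genes 90% of the intervals lay between these limits.

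Il6st, the signal-transducing chain shared by the whole family, gave even intensities on 5 arrays and a low one on the array of crush eye 2. Its brightest probe set, 1452843_at, was 3130, 3160 and 3313 in control eyes 1 to 3, and 3314, 517 and 3423 in crush eyes 1 to 3. Crush eyes 1 and 3 sat at the level of the controls, while crush eye 2 lay 2.60 on the log2 scale under the lowest other array. The difference was -0.83 ± 0.57 (SE, n = 3 pairs), with an interval from -2.26 to 0.61 and a limma adjusted p of 0.698. Without pair 2 it was 0.06, with an interval from -0.34 to 0.47.

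The next probe set of Il6st, 1437303_at, did not repeat that low array. Its intensities were 259, 291 and 255 in the controls and 261, 274 and 286 after crush, so that crush eye 2 lay inside the range of the others. The difference was 0.03 ± 0.14, with an interval from -0.32 to 0.38. A dimmer probe set, 1460295_s_at, read 55.2, 52.1 and 40.2 in the controls and 57.8, 33 and 62.3 after crush, with crush eye 2 again the lowest. Its difference was 0.01, with an interval from -0.66 to 0.69.

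Cntfr, which binds ciliary neurotrophic factor and is anchored in the membrane by a lipid, had the same shape. The intensities of 1419429_at were 1493, 1783 and 1729 in the controls and 1475, 738 and 1659 after crush, and again only crush eye 2 was low. The difference was -0.45 ± 0.29, with an interval from -1.18 to 0.28 and a limma adjusted p of 0.685. Pairs 1 and 3 differed by -0.02 and -0.06, and without pair 2 the difference was -0.04, with an interval from -0.45 to 0.37.

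Lifr, the chain that joins gp130 for leukemia inhibitory factor and ciliary neurotrophic factor, was about level. Its brightest probe set read 3602, 3099 and 2301 in the controls and 3396, 2791 and 3036 after crush, and the crush arrays lay inside the range of the controls. The difference was 0.05 ± 0.17, with an interval from -0.38 to 0.49. The second Lifr probe set had its lowest intensity, 90.2, on crush eye 2 and 131 to 154 on the other arrays, for a difference of -0.18 that became 0.09 without pair 2.

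Osmr, the chain that binds oncostatin M, had probe sets that moved in opposite directions. The brightest, 1418674_at, was 385, 503 and 368 in the controls and 466, 546 and 501 after crush, higher in each of the 3 pairs although the groups overlapped. The difference was 0.28 ± 0.14, with an interval from -0.09 to 0.65 and a limma adjusted p of 0.649. The second, 1418675_at, was 88.9, 96.0 and 125 in the controls and 79.99, 73.7 and 58.7 after crush, so that all 3 crush arrays lay under all 3 controls. That difference was -0.54 ± 0.22, with an interval from -1.09 to 0.01, and it became nominal without pair 1 (-0.73) and without the pairing, while without pair 3 it was -0.27. The untested Osmr probe set, with a mean of 21.3, was also lower in the 3 crush eyes (14.9, 8.4 and 18.3) than in the controls (24.6, 27.6 and 34.1). The probe sets therefore give no single direction for Osmr.

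Il6ra, the receptor chain for interleukin-6 itself, did not differ beyond the spread of the pairs. Its brightest probe set was 170, 171 and 186 in the controls and 198, 156 and 143 after crush, spreading to both sides of the controls. The difference was -0.10 ± 0.17, with an interval from -0.53 to 0.33. The second probe set differed by 0.00, with an interval from -0.49 to 0.50.

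**Figure D2:**
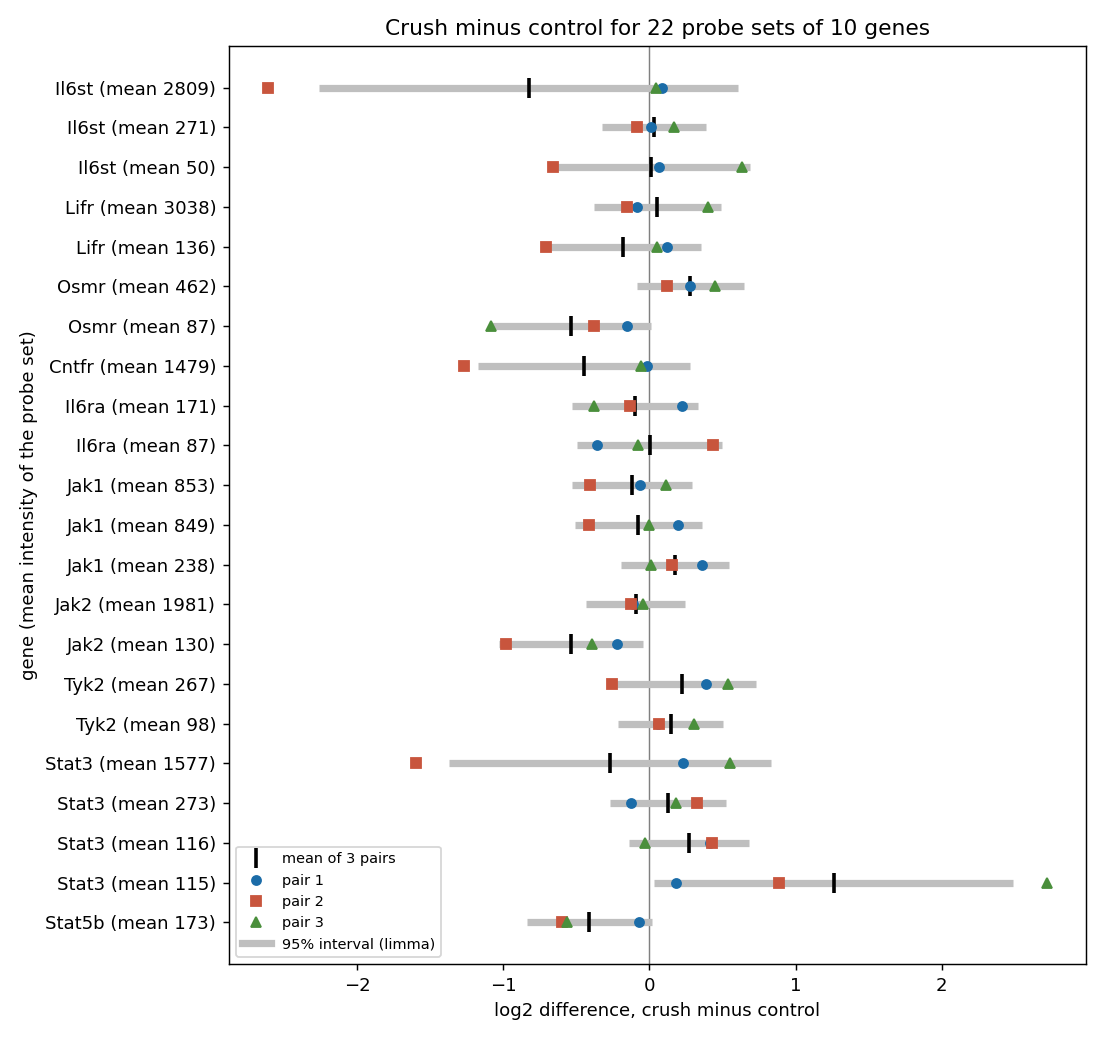
Log2 difference, crush minus control, for each of the 22 tested probe sets, with its 95% interval as a bar, the mean as a tick and the 3 pairs as points. The widest interval belongs to the brightest probe set of Il6st (-2.26 to 0.61), and the intervals of 1 Jak2 and 1 Stat3 probe set do not cross 0.

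Jak1, the kinase that gp130 signaling relies on most, had a difference with an interval that included 0 on each of its probe sets. Its brightest probe set, 1433803_at, was 1034, 981 and 661 in the controls and 987, 738 and 715 after crush. Both eyes of pair 3 were the lowest on this probe set, and on the other 2 Jak1 probe sets as well, at 635 and 633 on 1433805_at and at 188 and 189 on 1433804_at. The crush difference of the brightest was -0.12 ± 0.16, with an interval from -0.53 to 0.29 and a limma adjusted p of 0.839. The others differed by -0.08 and 0.17, so that Jak1 had no direction common to its probe sets.

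Jak2, a kinase shared with the hormone and growth factor receptors, was lower in each pair on both probe sets, by very different amounts. On the brightest, 1421066_at, the controls were 2183, 2035 and 1925 and the crush eyes 2018, 1866 and 1863. This was the narrowest of the 22 comparisons, at -0.10 ± 0.13, with an interval from -0.43 to 0.24. The dimmer 1421065_at was 165, 177 and 119 in the controls and 142, 89.4 and 90.3 after crush, and the groups overlapped through control eye 3 and crush eye 1. Its difference was -0.54 ± 0.19, nominally lower, with an interval from -1.03 to -0.04 and a limma adjusted p of 0.642. It missed a minimum difference of 80 in intensity, as used in the study, and was not nominal without pair 2 (-0.31) or without pair 3 (-0.60).

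Tyk2, the remaining kinase of these receptors, was dimmer and varied from eye to eye. Its brightest probe set was 181, 247 and 299 in the controls and 237, 207 and 434 after crush, higher in pairs 1 and 3 and lower in pair 2. The difference was 0.22 ± 0.20, with an interval from -0.29 to 0.73 and a limma adjusted p of 0.756. Without pair 2 it was 0.46, which was nominal. The second probe set differed by 0.14, higher in each of the 3 pairs.

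Stat3, the main effector of gp130, had 4 tested probe sets that disagreed. The brightest, 1460700_at, was 1547, 1586 and 1618 in the controls and 1816, 523 and 2373 after crush. Crush eyes 1 and 3 lay above all controls and crush eye 2 lay 1.56 on the log2 scale under the lowest other array. The difference was -0.27 ± 0.43, with an interval from -1.37 to 0.83 and a limma adjusted p of 0.868. Without pair 2 it turned to 0.39, with an interval from -0.06 to 0.85.

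The other Stat3 probe sets were not low on crush eye 2. On 1424272_at the controls were 259, 223 and 299 and the crush eyes 237, 280 and 340, for a difference of 0.13 ± 0.16. On 1426587_a_at the controls were 107, 91.8 and 117 and the crush eyes 142, 124 and 115, for a difference of 0.27 ± 0.16. Neither was nominal.

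The dimmest tested Stat3 probe set, 1459961_a_at, carried the nominal call. It was 59.7, 49.3 and 55.8 in the controls and 67.6, 91.1 and 367 after crush, so that the groups did not overlap but crush eye 3 stood far above the rest, by 2.01 on the log2 scale. The difference was 1.26 ± 0.49, with an interval from 0.03 to 2.49 and a limma adjusted p of 0.642. It was the single probe set of the 22 with a nominal limma p, a ratio over 1.2 and a difference over 80, but with the paired test of the study's methods on intensities none of the 22 met these limits. The difference was not nominal without pair 2 (1.45), without pair 3 (0.53) or without the pairing (1.26).

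Stat5b, a STAT used mainly by hormone and growth factor receptors, was lower in each pair. Its tested probe set was 186, 237 and 166 in the controls and 178, 157 and 112 after crush, and the groups overlapped through control eye 3 and crush eye 1. The difference was -0.41 ± 0.17, with an interval from -0.84 to 0.02 and a limma adjusted p of 0.642. It became nominal without pair 1, at -0.58, and with median scaling, at -0.46.

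**Figure D3:**
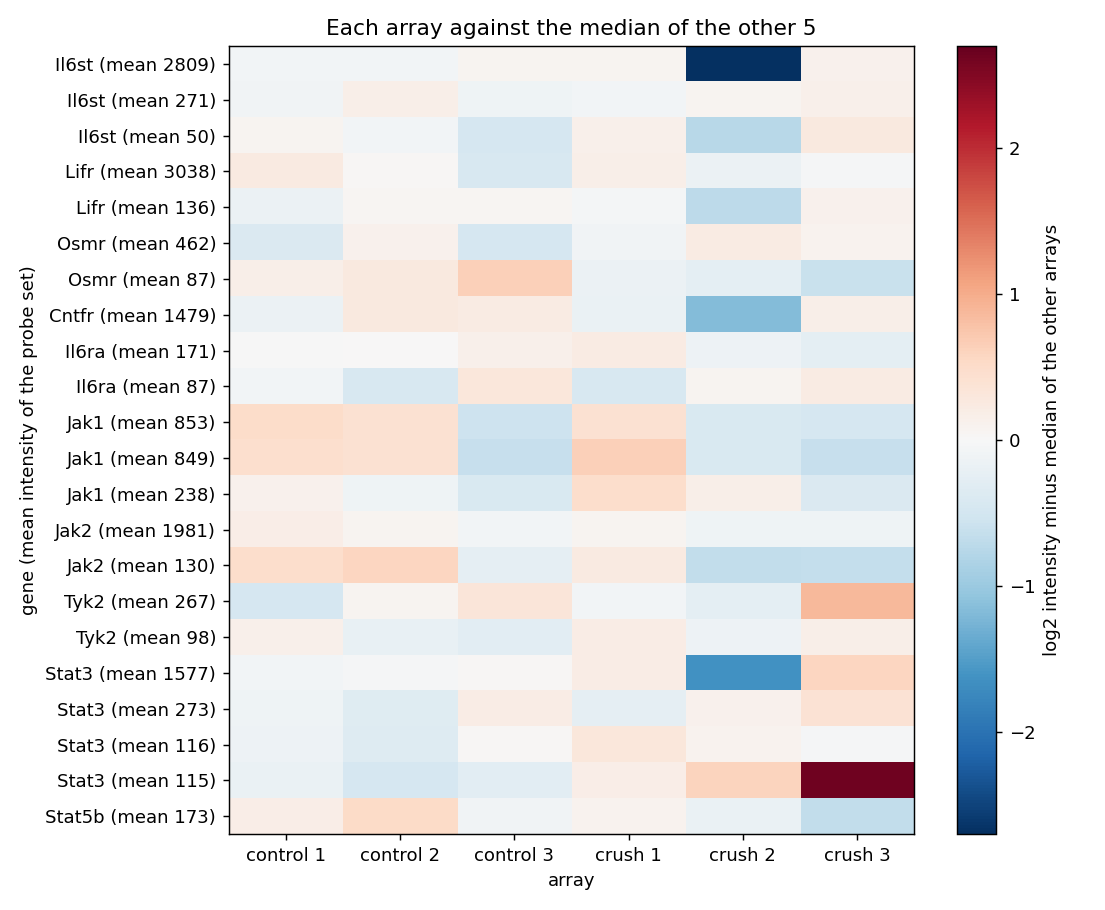
Log2 intensity of each array minus the median of the other 5 arrays, for the 22 tested probe sets of the 10 genes, with blue for lower and red for higher. The strongest cells are the brightest probe sets of Il6st, Stat3 and Cntfr on crush eye 2 and the dimmest Stat3 probe set on crush eye 3.

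Values from a single array thus set the largest differences of these genes in both directions. On crush eye 2, 2 of the 22 probe sets, the brightest of Il6st and Stat3, were lower than every other array by more than 1 on the log2 scale, against the 4.01% of all probe sets given above. The Cntfr probe set fell just short of that margin. On crush eye 3, 1 of the 22, the dimmest of Stat3, was higher than every other array by more than 1, against 0.769%. The part that these arrays play in the differences was seen by leaving out their pairs, as given with each gene, and what set them apart was not tested.

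By role, the receptors had 10 tested probe sets, of which 5 were above 0 and 5 below with none nominal. The kinases had 7, with 3 above, 4 below and 1 nominal. The STATs had 5, with 3 above, 2 below and 1 nominal. Each of these nominal calls was 1 dim probe set, and 7.68% of all probe sets were nominal. The standard errors of the 22 ran from 0.13 to 0.57, and 16 of the 22 intervals, or 72.7%, lay between -1 and 1, against 86.2% over the array.

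Genes that followed the leading receptor, kinase and STAT across the 6 arrays were sought among 10866 genes with a mean of at least 200, as a description. For Il6st the 3 closest were Plb1, Reg1 and Eml2, with Pearson r of 1.00, 0.999 and 0.999. These shared the low array, and without crush eye 2 the values were 0.80, 0.97 and 0.48. For Stat3 they were 4930444F02Rik, Gm5124 and Rab3gap2, with r of 0.999, 0.999 and 0.997, which stayed at 0.996, 0.997 and 0.987 on the 5 arrays without crush eye 2. For Jak1 they were Arid1a, Sec11a and 4833420G17Rik, with r of 0.996, 0.992 and 0.992, and these 3 were as high without crush eye 2. The arrays are the same 6 for every gene, and the closest of so many genes have high values by selection.

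The ligands of these receptors were dim or level. Of 11 listed, 6 were measured, 3 above 0 and 3 below, and none was nominal. Osm, which encodes oncostatin M, was 196, 162 and 190 in the controls and 187, 154 and 124 after crush, lower in each pair, with a difference of -0.25 ± 0.17. Il11, near the limit of measurement at 28.5 to 64.4, differed by -0.23 ± 0.28. Lif, which encodes leukemia inhibitory factor, differed by 0.11 ± 0.20, with an interval from -0.39 to 0.62, and Ctf1, for cardiotrophin, by -0.09 ± 0.18. The probe sets of Il6 were under the minimum mean, and that of Cntf is annotated to several genes, so neither was tested. Neither of 2 further receptors listed was measured here. Of 6 other kinases and STATs, 3 were measured with none nominal, Stat6 at 0.17 ± 0.17, Stat2 at 0.09 ± 0.13 and Jak3 at -0.03 ± 0.16. A dimmer Stat2 probe set, 1450403_at, was nominally higher at 0.48 ± 0.17, at 31.2, 34.5 and 37.9 in the controls and 36.4, 46.8 and 64.8 after crush.

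The inhibitors held the largest difference of the pathway. Of 16 listed, 14 were measured, 10 above 0 and 4 below, and 2 were nominal, Socs3 higher and Pias4 lower, against 45.7% above 0 and 5.03% nominal over all genes. Socs3, the feedback inhibitor whose window with a STAT motif is printed above, was 139, 174 and 171 in the controls and 621, 419 and 1115 after crush. All 3 crush eyes lay well above all controls, crush eye 2 included. The difference was 2.04 ± 0.29, with an interval from 1.31 to 2.78 and a limma adjusted p of 0.642. These values are of 1455899_x_at. A second Socs3 probe set, 1456212_x_at, gave 2.07. Another, 1416576_at, which lacks the x_at suffix of these, gave 0.19 with an interval from -0.27 to 0.64. In a rerun here of the methods' paired t-test on the deposited intensities, 1455899_x_at did not pass the threshold, with a p of 0.113. The study itself lists Socs3 as upregulated past its own thresholds, and reports qRT-PCR in the same direction.

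Pias4, which restrains STAT-driven transcription, was 731, 620 and 893 in the controls and 616, 195 and 655 after crush, with crush eye 2 again the lowest. The difference was -0.79 ± 0.31, with an interval from -1.56 to -0.01. Without pair 2 it was -0.35 and not nominal, and another Pias4 probe set, 1455394_at, gave 0.43 in the opposite direction. Socs2, an inhibitor of growth hormone signaling, was lower in each pair at -0.36 ± 0.15, short of the nominal threshold. Its other tested probe sets gave -0.18, 0.15, -0.13 and -0.51. Pias3, Pias1 and Socs4 were at 0.28, 0.21 and 0.21, none of them nominal. The other tested Socs4 probe sets went the opposite way. They were 1421275_s_at at -0.54, with the crush arrays under all controls, and 1421274_at at -0.68. The second Pias3 probe set gave -0.04, and the others of Pias1 gave -0.02, 0.11 and 0.59.

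**Figure D4:**
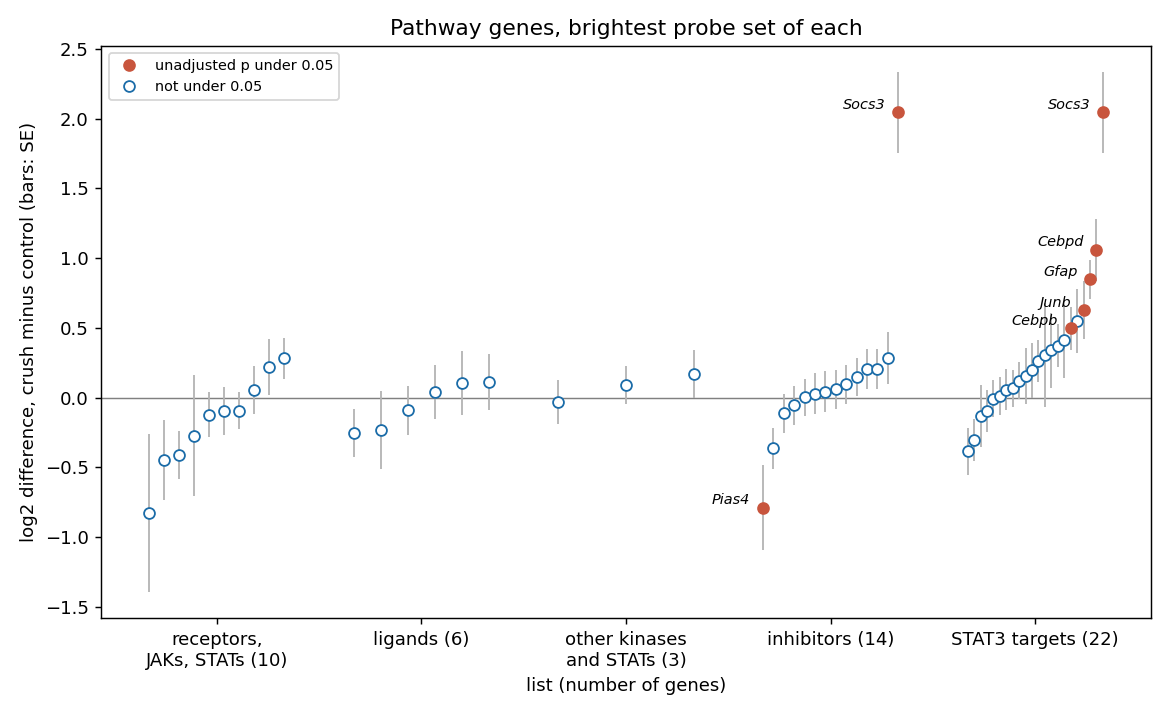
Log2 difference, crush minus control, of the brightest probe set of each gene (bars, SE) in 5 groups: the 10 receptor, kinase and STAT genes, then 6 ligands, 3 other kinases and STATs, 14 inhibitors and 22 STAT3 targets. Filled points are nominal, and Socs3, which belongs to 2 of the groups, is the highest at 2.04.

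The STAT3 targets leaned upward as a list. Of 26 listed, 22 were measured, 17 above 0 and 5 below, with a median of 0.23 against -0.02 over all genes. Nominal differences were found for 5 of 22, all higher, where 5.03% of all genes were nominal in either direction. The list was drawn up with earlier results of these data known, so its direction is not independent evidence, and many of these genes also answer to other signals.

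Cebpd, which switches on acute phase genes, was 846, 835 and 586 in the controls and 1466, 1405 and 1816 after crush, so that the groups did not overlap. The difference was 1.06 ± 0.22, with an interval from 0.50 to 1.62, and a second probe set gave 0.96. Gfap, the intermediate filament of reactive glia, was 379, 326 and 503 in the controls and 730, 607 and 821 after crush, again without overlap. The difference was 0.85 ± 0.14, with an interval from 0.49 to 1.203. Its second probe set, 1426508_at, gave -0.25 and was lowest on crush eye 2 at 148, and the dimmest gave 0.48.

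Junb, an immediate early factor of the AP-1 family, was 108, 126 and 108 in the controls and 161, 145 and 231 after crush, without overlap and at 0.63 ± 0.21. Cebpb, the partner of Cebpd, was 565, 560 and 709 in the controls and 706, 935 and 956 after crush. Its difference was 0.50 ± 0.15, with control eye 3 touching the crush range. Its second probe set, 1427844_a_at, gave -0.21 ± 0.31 and was lowest on crush eye 2 at 25.6. Limma gave each of these 4 genes the adjusted p of 0.642 that it gave Socs3. Leaving out pairs changed the nominal call of 2 of them: Junb was not nominal without pair 1 or without pair 3, and Cebpb was not nominal whichever of the 3 pairs was left out. In the rerun of the methods' test on intensities, Gfap passed the threshold and Socs3, Cebpd, Cebpb and Junb did not. Icam1, Fos and Ccnd1 were at 0.37, 0.55 and -0.39 and were not nominal. The other Ccnd1 probe sets gave 0.35 and 0.02.

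Marker sums of other cell types were compared for the same arrays, and 55 of 62 marker genes in 12 lists were measured. For 10 of the lists the control and crush ranges overlapped, although by pair 5 lists had a lower sum after crush in each of the 3 pairs (Müller cell, pericyte, amacrine, bipolar and lens) and 1 a higher sum in each (pigment epithelium). The 10 RGC genes summed to 59005 to 60495 in the controls and 52236 to 65790 after crush, the 8 Müller cell genes to 36807 to 41740 and 35130 to 38404, the 3 astrocyte genes, Gfap among them, to 12290 to 12804 and 11363 to 13810, and the 6 microglia genes to 3324 to 4832 and 3447 to 4376. Of the 8 Müller cell genes 7 were below 0, and Aqp4 was nominally lower at -0.36 ± 0.14. The sum of the pigment epithelium genes (3 of 4 measured) was higher after crush, at 2144 to 7845 against 760 to 1263, with the highest on crush eye 3. Most of that sum was Ttr, at 1733 to 7355 after crush against 493 to 948, with a nominal difference of 2.32 ± 0.25. Lrat was nominally higher too, at 0.59 ± 0.16, and Best1 differed by -0.01 ± 0.21. The sum of the amacrine genes (all 5 measured) was lower, at 19186 to 19898 against 19937 to 23529. The ranges also overlapped for endothelial cells (3116 to 3447 in the controls and 2651 to 3527 after crush), pericytes (9991 to 10772 and 9590 to 10654), bipolar cells (7686 to 10246 and 7197 to 8298), rods, cones (2201 to 5101 and 2845 to 4242) and lens (1200 to 5418 and 698 to 4103). Among the bipolar genes Cabp5 was nominally lower, at -0.66 ± 0.21, with no overlap of the groups. Crygs of the lens was nominally lower at -1.83 ± 0.71, with crush eye 2 under the floor at 4.74. Its pairs differed by -0.50, -4.07 and -0.93, and its controls ran from 95.1 to 3226. Opn1mw of cones was nominally higher at 0.87 ± 0.33, although pair 1 was level at -0.01 and the groups overlapped. Of the 4 cone genes 3 were above 0, and Opn1sw was below at -0.49 ± 0.48. Whether the pigment epithelium, amacrine or Müller cell share has a part in the Socs3, Cebpd and Gfap differences was not tested.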

How the data were processed

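Amplified RNA from laser-captured ganglion cell layer of 6 eyes was measured on Affymetrix Mu430 v2.0 arrays, 1 array per eye. The deposited values are linear intensities, which the authors made in dChip by the PM/MM model after invariant set normalization across arrays.

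A floor of 16 was applied before the log2 step. Of 45101 probe sets, 64 controls and those with a mean under 40 were left out, and limma 3.58.1 (lmFit and eBayes, in R 4.3.3) was fitted to the remaining 33169, with the eye number as a block and Benjamini-Hochberg adjustment. The noninjured eyes were contralateral eyes of the same animals, although the labels do not state that equal numbers mark one animal. The deviations of same-numbered eyes from their group means correlated at 0.154, 0.125 and 0.297 in pairs 1 to 3. Eyes of different numbers correlated at -0.264 to 0.131. Control eye 2 was closer to a crush eye of another number than to crush eye 2, so these values do not settle pair 2. The study's thresholds were a paired t-test p under 0.05, a ratio over 1.2 and a difference over 80 on intensities. The ratio and difference limits were applied here with the unadjusted limma p, and the methods' test was an alternative. Floors bring dim probe sets closer together, and 3 pairs limit the precision.

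Symbols came from the platform annotation, which gave 34958 probe sets 1 symbol, 932 several and 9211 none. A gene was read by its brightest probe set. The genes named were the 10 with all their probe sets, and for Il6st, Jak1 and Stat3 the 3 genes of the highest r. From each pathway list those with an unadjusted p under 0.05 were named, with up to 4 more of the smallest p. Marker genes with an unadjusted p under 0.05 were named too. Members and lists (ligands, other receptors, other kinases and STATs, inhibitors, STAT3 targets and cell type markers) were chosen with earlier results of these data known. Start windows were taken from RefSeq on GRCm38.p6, where all 10 genes matched by symbol. The fit was checked on simulated data with independent noise and without a pair effect or an outlying array, so the check does not cover such arrays. Alternatives were no block, a floor of 64, no intensity filter, quantile normalization, median scaling, a trended robust prior, the methods' paired t-test on intensities, the brightest probe sets alone and leaving out each pair.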

Additional observations from a re-analysis of the deposited data

How the results depend on the processing

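The count of 2 nominal probe sets among the receptor, kinase and STAT genes did not hold under every alternative. It was 1 without the replicate block (the dimmer Osmr probe set), 0 with a floor of 64, 1 with no intensity filter (the dimmest Osmr probe set), 0 with the methods' paired t-test and 0 over the brightest probe sets alone. It was 2 with quantile normalization, 3 with median scaling, 2 with a trended robust prior, and 0 to 4 on leaving out 1 pair. The share of all probe sets called also moved. It was 6.28% without the block, 7.9% with a floor of 64, 7.78% with no filter and 5.04% with the methods' paired t-test. Quantile normalization gave 9.13%, median scaling 9.34% and the trended robust prior 7.54%. Leaving out pair 1, 2 or 3 gave 8.13%, 5.35% and 4.68%, with 4, 1 and 0 of the 22. The count of 1 with a nominal limma p and the study's ratio and difference limits was 0 without the block, with a floor of 64, with no filter and with the methods' paired t-test, and 0 to 1 on leaving out a pair. The cause was not tested.

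The 2 nominal inhibitors became 1 without the block (Socs3) and 1 with the methods' paired t-test (Socs2), and 1 to 2 without a pair. With a floor of 64 the 2 were Socs2 and Socs3, without Pias4. The count was 3 with no intensity filter (Socs2, Socs3 and Socs6). With quantile normalization, median scaling and the trended robust prior it was also 3 (Pias4, Socs2 and Socs3). The 5 nominal STAT3 targets became 8 with median scaling and 2 with the methods' paired t-test (Gfap and Pim3), and 3 to 5 without a pair. They were 4 with a floor of 64 and 7 with quantile normalization or the trended robust prior. Of all probe sets, 1671 passed the methods' paired t-test and 1551 to 2696 without a pair, against 2546, while limma without the block called 2082. The split of calls was 1713 higher and 833 lower as reported, 1783 and 1245 with quantile normalization, and 1443 and 1655 with median scaling, which put the median of all probe sets at -0.05. No adjusted call was made under any alternative, except 1 probe set of another gene with the trended robust prior.

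Of 220 differences recomputed for the 22 probe sets, 186 kept their direction and their side of the threshold, and 16 turned. On the second Il6ra probe set the difference of 0.00 became -0.043 with median scaling and -0.0033 with the methods' paired t-test. The second Il6st probe set became -0.012 with quantile normalization and -0.015 with median scaling, and the dimmest tested became -0.032 with median scaling. Ranges over leaving out a pair that crossed 0 were -0.26 to 0.044 and -0.22 to 0.18 (Il6ra, brightest and second), -1.28 to 0.065, -0.037 to 0.088 and -0.30 to 0.35 (Il6st, brightest, second and dimmest tested), -0.24 to 0.023 and -0.21 to 0.095 (Jak1, brightest and second), -0.12 to 0.16 and -0.33 to 0.086 (Lifr, brightest and second), and -0.68 to 0.39 (Stat3, brightest).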
